A study of Rattus norvegicus with 6 samples.

Results

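The collagen chain genes form one family in this study of the rat aorta, taken as every row of the deposited array table whose annotation gives exactly 1 gene symbol of the form Col, a number, the letter a and a number. The rule found 27 rows for 25 genes among the 14324 named genes of the table. Col6a4 alone had several rows, of which the brightest on average was used. By the structures their proteins build, 10 genes were grouped as fibrillar, 5 as fibril-associated (FACIT), 5 as network-forming and 5 as other chains. The remaining 20 chains of the class table, among them Col4a2, Col6a1, Col15a1 and Col18a1, were not analysed here.

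Total RNA came from the aorta of male rats labelled Fisher 344, aged 1 to 2 months, with no treatment or genetic alteration given. Day 0 was rings of aorta taken to RNA fresh, and day 1 was rings kept for 1 day in a collagen gel under serum-free EBM medium, each group with 3 arrays. Each array held RNA combined from 4 to 6 rings or ring cultures, and the labels do not say whether these rings came from separate animals, and a p-value therefore covers only the spread among pools. Cultured aortic rings are used to study angiogenesis, since vessels later sprout from the cut wall, and the comparison asks how the wall's collagen transcripts differed after the first day. The rings were embedded in collagen, a protein gel added from outside that is not itself measured by an RNA array.

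Collagens are trimers of alpha chains wound into a triple helix, which needs a glycine at a fixed spacing along each chain. Fibrillar chains form the cross-striated fibrils that carry tension in the media and adventitia, FACIT chains decorate the fibril surface, and type IV chains build the sheet of the basement membrane beneath endothelium and around each smooth muscle cell. Several types need different chains in one trimer, so the balance between chain genes is part of how a type is made.

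After 1 day of culture 24 of the 25 collagen genes fell and 1, Col8a1, rose (limma with Benjamini-Hochberg adjustment over all genes, adjusted p under 0.05). Over all genes tested, 20.7% fell and 27.6% rose by the same rule. The median log2 change was -0.60 for the collagen genes and -0.01 for all genes. A fall of at least 2-fold was found for 5 collagen genes, namely Col14a1, Col5a1, Col11a1, Col4a3 and Col4a4, and 4.11% of all genes fell as far. The day 0 and day 1 arrays did not overlap in any of the 25 genes, day 1 being lower in 24 and higher in 1, where 25.5% and 31.4% of all genes parted in those directions. Tested against a change of 1.5-fold (limma's treat) 7 collagen genes fell and 0 rose, where 5.05% of all genes fell and 5.77% rose. The changes below 2-fold ran from -0.96 for Col4a1 to -0.37 for Col13a1 on the log2 scale, the latter leaving 77.3% of the day 0 level.

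**Figure D1:**
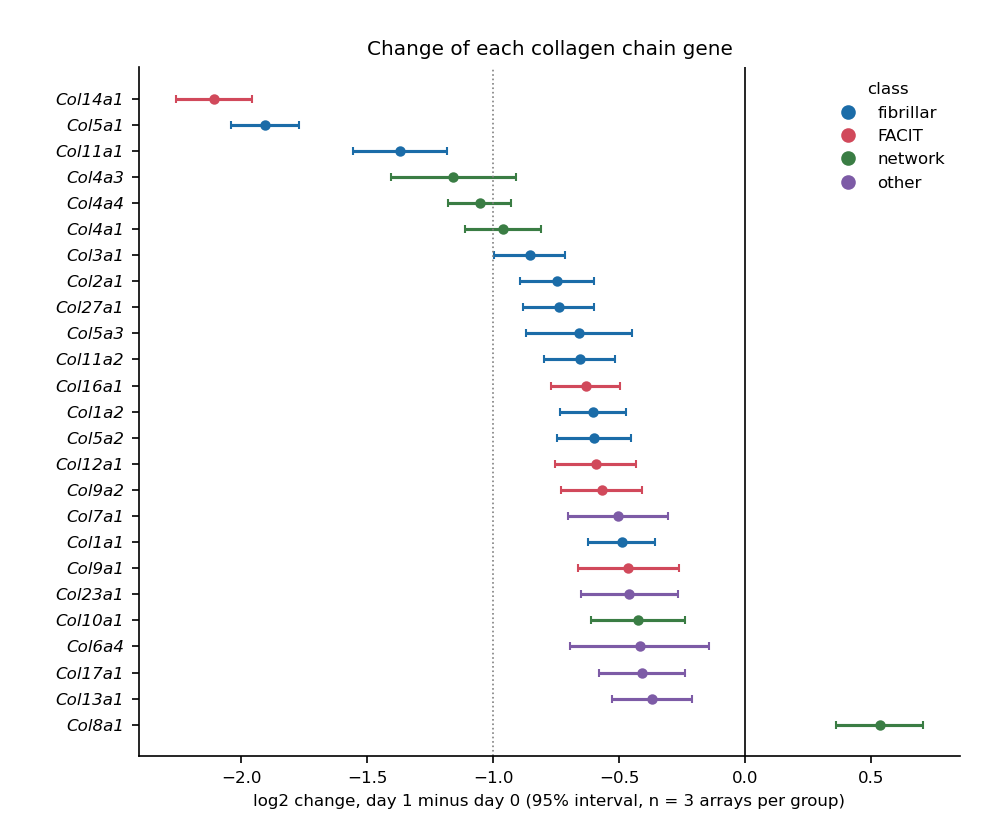
Log2 change of each of the 25 collagen chain genes, day 1 minus day 0, coloured by class, with 95% intervals from limma (3 arrays per group) and a dotted line at a 2-fold fall. Only Col8a1 lies above 0, at 0.53, and Col14a1 lies lowest at -2.11.

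**Figure D2:**
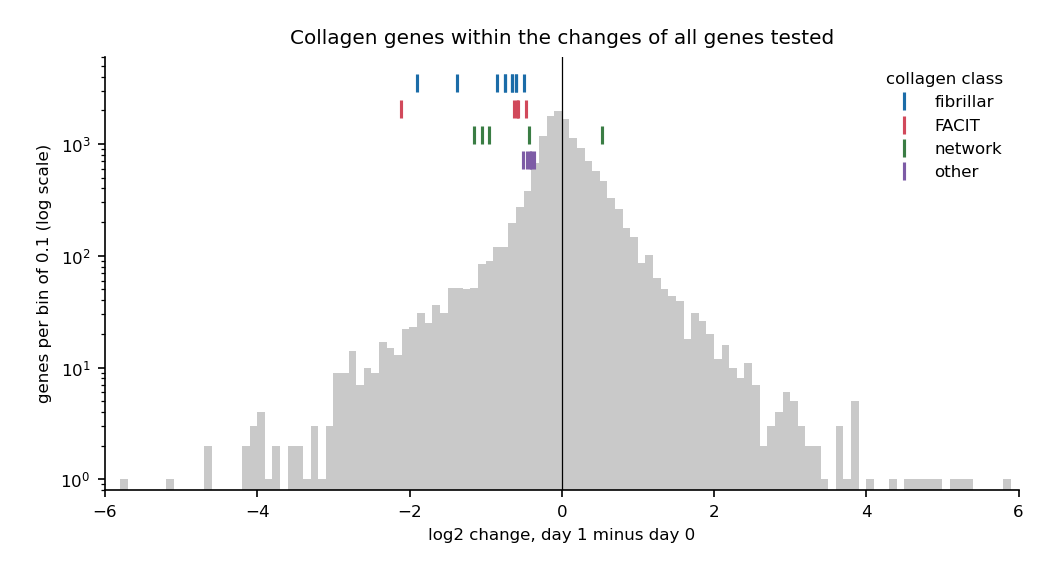
Distribution of the log2 change of all 14324 genes tested (grey bars, log axis) with 1 tick for each collagen gene, a row of ticks per class. The collagen ticks sit left of 0 except that of Col8a1.

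Levels were deposited as log2 expression values, 1 per gene and array, so a difference of 1 is a doubling. They compare a gene between arrays and not different genes with each other. Each ± gives the standard error that the fit assigns to a change, with n = 3 per group. The 6 arrays had medians between 5.87 and 5.95. The upper quartile lay at 7.83 to 7.87 in the rings and at 7.93 to 7.95 in the cultures, whose values were thus more widely spread. Contractile smooth muscle markers checked the tissue label, with 8 of 8 measured and above the median gene, and all 8 fell. The log2 of their summed level was 15.02 to 15.08 on day 0 and 11.74 to 11.90 on day 1. The same sum over 8 fibroblast markers was 14.17 to 14.28 on day 0 and 14.40 to 14.49 on day 1, with 3 members higher and 5 lower. Such a sum follows its brightest rows, here Dcn and Lum, which rose by 0.56 ± 0.07 and 0.88 ± 0.07. The median log2 change of the 8 was -0.54, with Pi16 lowest at -1.94 ± 0.09, so the sum does not stand for the list. In RNA from whole rings, fewer cells of a type and less RNA per cell cannot be told apart, and the part of either list in the collagen changes was not tested.

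Among the fibrillar chains all 10 fell, with a median log2 change of -0.70. Col1a1 and Col1a2 encode the chains of type I collagen, the main fibril of the outer wall. Col1a1 read 13.88, 13.87 and 13.87 in the day 0 rings and 13.42, 13.33 and 13.41 in the day 1 cultures. Each day 1 array was lower than each day 0 array. The change was -0.49 ± 0.06 (SE, n = 3 per group, adjusted p = 0.000209 by limma). That is a fall of 1.40-fold, the smallest among the fibrillar chains. Col1a2 read 13.77, 13.76 and 13.75 on day 0 and 13.19, 13.11 and 13.17 on day 1, a change of -0.60 ± 0.06. Both rows lie near the top of the table, whose highest value is 14.16, and whether the arrays read such bright rows in proportion was not tested.

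Col3a1 encodes the single chain of type III collagen, the extensible fibril partner of type I in arteries. It read 13.44, 13.45 and 13.37 on day 0 and 12.59, 12.51 and 12.59 on day 1, so that 55.3% of the day 0 level was left. The change was -0.86 ± 0.06 (SE), with a 95% interval of -1.0 to -0.72. It was the largest fall among the 4 chains of the major fibrils, types I, II and III.

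The stretch before Col1a2 is shown because type I is the main fibril of the wall. The 250 bases before its RefSeq start (GRCr8, chr4:33518307-33518556, plus strand) hold the letters of a CCAAT box, here on the opposite strand, and of a TATA box, both in capitals. The first base of the CCAAT match lies 221 bases before the start and that of the TATAAA match 170 bases.
Col1a2: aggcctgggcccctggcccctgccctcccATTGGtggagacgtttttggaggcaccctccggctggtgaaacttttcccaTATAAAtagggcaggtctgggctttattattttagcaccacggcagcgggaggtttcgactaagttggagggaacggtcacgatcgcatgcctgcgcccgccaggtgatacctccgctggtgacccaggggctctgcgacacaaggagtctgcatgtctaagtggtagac
The CCAAT box (CCAAT, either strand) was present in 34.0% of the 33469 windows of the same length in the RefSeq promoter table, and the TATA box (TATAAA, either strand) in 12.9%. Of the 25 collagen genes 20 had such a window; 7 of the 20 held a CCAAT box and 4 a TATA box. These are matches of letters and not measured sites, and whether transcription in the aorta begins at the RefSeq start was not tested.

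Type V collagen is the minor fibrillar collagen that starts and limits the width of type I fibrils, and its chain genes fell by different amounts. Col5a1 read 10.87, 10.88 and 10.87 in the rings and 9.0, 8.91 and 9.0 in the cultures, a step of nearly 2 units with very close replicates. The fall was 3.75-fold, at -1.91 ± 0.06 (SE, adjusted p = 1.96e-07 by limma), and only 1.20% of all genes had a lower change. Its partner Col5a2 read 10.62, 10.64 and 10.55 on day 0 and 10.04, 9.93 and 10.04 on day 1, a change of -0.60 ± 0.06. Col5a3, which replaces a chain in some type V trimers, read 7.33, 7.51 and 7.31 on day 0 and 6.85, 6.58 and 6.73 on day 1 (-0.66 ± 0.09). Col5a1 thus fell to 26.7% of its day 0 level while Col5a2 kept 66.0% and Col5a3 63.3%. The row of Col5a3 was much dimmer than the others, and how far it reads background was not tested.

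The window before the start of Col5a1 is shown for its contrast in composition with that of Col1a2, given above (GRCr8, chr3:31606630-31606879, plus strand, with a GC box in capitals).
Col5a1: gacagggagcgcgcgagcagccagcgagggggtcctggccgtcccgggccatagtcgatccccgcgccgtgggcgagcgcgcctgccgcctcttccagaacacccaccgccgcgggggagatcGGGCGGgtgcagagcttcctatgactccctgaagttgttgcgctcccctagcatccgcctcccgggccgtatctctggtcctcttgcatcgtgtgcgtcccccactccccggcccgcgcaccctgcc
It is 71.6% G and C, against 58.4% in the window of Col1a2, 44.8% in that of Col5a2 and a median of 51.2% over all windows. The GC box (GGGCGG, either strand), the element bound by Sp1-type factors, was present in 11 of the 20 collagen windows and in 30.5% of all windows. The AP-1 element (TGANTCA, which reads alike on both strands) was present in 0 of the 20 and in 6.34% of all windows. Neither share was compared with windows of like G and C content, and neither contrast was tested.

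The cartilage-type fibrillar chains also read lower. Col11a1, a chain of type XI collagen, the counterpart of type V in cartilage, read 8.17, 8.33 and 8.37 on day 0 and 6.94, 6.82 and 7.0 on day 1. The fall of 2.59-fold (-1.37 ± 0.08, adjusted p = 4.51e-06 by limma) was the second largest of the class after Col5a1. Its partner Col11a2 read 7.55, 7.63 and 7.61 on day 0 and 6.99, 6.93 and 6.89 on day 1 (-0.66 ± 0.06). Col2a1, the chain of the main cartilage fibril, read 7.22, 7.23 and 7.33 on day 0 and 6.57, 6.50 and 6.47 on day 1 (-0.75 ± 0.06). Col27a1, a fibrillar chain of developing cartilage, changed by -0.74 ± 0.06.

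**Figure D3:**
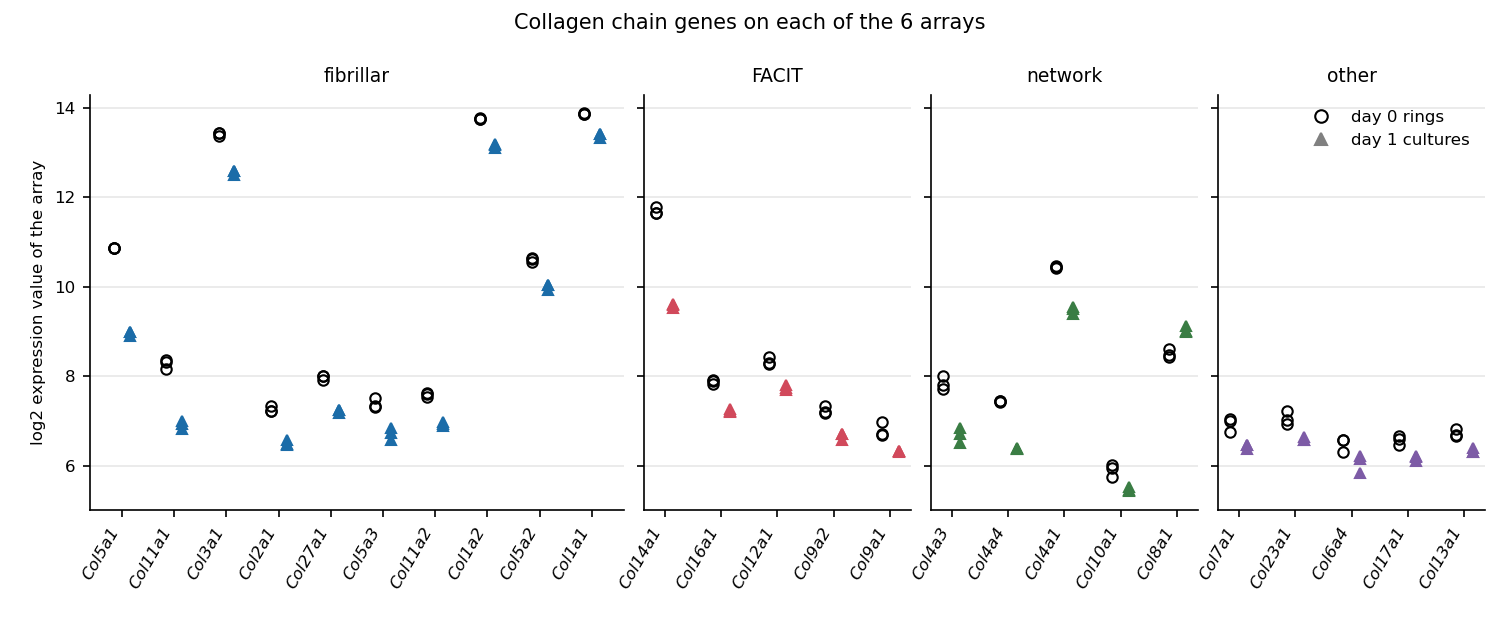
Log2 expression value of each collagen gene on each array, 3 day 0 pools of rings (open circles) and 3 day 1 pools of ring cultures (triangles). Panels are by class. In every gene both groups stand apart, with the triangles lower except for Col8a1.

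All 5 FACIT genes fell, with a median of -0.59. Col14a1 had the largest fall of the whole family. It encodes type XIV collagen, which sits on type I fibrils in mature dense tissue. Its arrays read 11.78, 11.65 and 11.65 on day 0 and 9.54, 9.60 and 9.63 on day 1, leaving 23.2% of the day 0 level. The change was -2.11 ± 0.07 (SE, adjusted p = 2.10e-07 by limma), and 0.908% of all genes had a lower one. Col12a1, the related chain of type XII, also found on type I fibrils, read 8.30, 8.28 and 8.44 on day 0 and 7.75, 7.69 and 7.81 on day 1. Its change of -0.59 ± 0.07, with an interval of -0.75 to -0.43, lay far from that of Col14a1, whose interval was -2.26 to -1.96. Col16a1 read 7.82, 7.91 and 7.89 on day 0 and 7.23, 7.21 and 7.28 on day 1 (-0.63 ± 0.06). The type IX chains of cartilage changed by -0.57 ± 0.07 for Col9a2 and -0.46 ± 0.09 for Col9a1. Col9a2 read 7.19, 7.20 and 7.33 on day 0 against 6.71, 6.58 and 6.71 on day 1. Col9a1 read 6.69, 6.98 and 6.71 against 6.33, 6.34 and 6.32, so its day 0 arrays were the more spread.

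The network chains went both ways. Col4a1 encodes the most widespread chain of the type IV basement membrane, and in these data it read 10.45, 10.42 and 10.46 on day 0 and 9.51, 9.39 and 9.55 on day 1. The fall was to 51.4% of the day 0 level (-0.96 ± 0.06, adjusted p = 9.72e-06 by limma). Its replicates were closer on day 0 (standard deviation 0.019) than on day 1 (0.083). The usual partner of Col4a1, Col4a2, was not analysed here. Col4a3 and Col4a4 encode chains of the specialised type IV network best known from the kidney glomerulus. Col4a3 read 7.80, 8.02 and 7.73 on day 0 and 6.84, 6.52 and 6.72 on day 1 (-1.16 ± 0.11). Col4a4 read 7.44, 7.44 and 7.43 on day 0 and 6.38, 6.37 and 6.40 on day 1 (-1.05 ± 0.05). Both fell by more than 2-fold, to 44.8% and 48.2% of the day 0 level.

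Col4a3 and Col4a4 are direct neighbours in the rat gene table and are read away from each other from a common stretch. Their start regions are shown because both genes fell by like amounts. The window of Col4a3 lies at chr9:91323740-91323989 on the plus strand and that of Col4a4 at chr9:91323578-91323827 on the minus strand (GRCr8), each written 5′ to 3′ on its own strand, with a GC box in capitals.
Col4a3: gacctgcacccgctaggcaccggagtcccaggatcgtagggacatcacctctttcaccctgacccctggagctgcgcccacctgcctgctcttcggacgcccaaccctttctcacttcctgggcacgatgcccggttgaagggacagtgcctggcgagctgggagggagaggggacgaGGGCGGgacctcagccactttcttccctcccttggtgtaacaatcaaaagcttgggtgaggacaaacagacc
Col4a4: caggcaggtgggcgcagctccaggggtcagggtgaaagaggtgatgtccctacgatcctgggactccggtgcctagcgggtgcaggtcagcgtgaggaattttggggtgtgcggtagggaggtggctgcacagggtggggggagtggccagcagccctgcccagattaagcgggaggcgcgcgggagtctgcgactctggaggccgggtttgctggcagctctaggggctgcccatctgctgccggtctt
The windows overlap by 88 bases. The Col4a3 window held 1 GC box and that of Col4a4 held 0, and neither held any of the other elements searched.

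Col8a1 was the only collagen gene that rose. It encodes a chain of type VIII collagen, a short-chain network collagen made by endothelial and smooth muscle cells and known from injured vessels. It read 8.62, 8.47 and 8.43 in the rings and 8.99, 9.01 and 9.12 in the cultures. The lowest day 1 array thus stood 0.37 log2 units above the highest day 0 array. The change was 0.53 ± 0.07 (SE), with a 95% interval of 0.36 to 0.70 (adjusted p = 0.000554 by limma), a level of 145% of day 0. Of all genes tested 87.5% had a lower change. Col10a1, the related short-chain gene of hypertrophic cartilage, moved the other way, from 5.75, 5.95 and 6.01 to 5.43, 5.47 and 5.53 (-0.43 ± 0.08). The window before the start of Col8a1 (GRCr8, chr11:56246532-56246781, plus strand) is shown as that of the one riser, and its 4 GC boxes, all on the opposite strand, are in capitals.
Col8a1: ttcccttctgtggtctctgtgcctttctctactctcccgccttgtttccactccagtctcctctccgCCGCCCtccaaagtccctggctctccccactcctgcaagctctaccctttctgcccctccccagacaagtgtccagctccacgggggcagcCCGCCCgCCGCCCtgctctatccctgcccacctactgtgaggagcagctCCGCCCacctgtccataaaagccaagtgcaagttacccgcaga
No other collagen window held as many GC boxes, the next being the windows of Col11a1, Col11a2 and Col5a3 with 3 each. All 3 of those genes fell.

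The 5 other chains fell with a median of -0.42 and a narrow range of -0.51 to -0.37. Col7a1, the anchoring fibril of skin, read 6.76, 7.01 and 7.04 on day 0 and 6.46, 6.38 and 6.46 on day 1 (-0.51 ± 0.09). The chains that span the cell membrane, Col23a1, Col17a1 and Col13a1, had small falls. Col23a1 read 6.94, 7.23 and 7.03 against 6.64, 6.59 and 6.59 (-0.46 ± 0.08). Col17a1, a hemidesmosome protein of epithelium, read 6.47, 6.61 and 6.66 against 6.22, 6.10 and 6.20 (-0.41 ± 0.07). Col13a1 changed by -0.37 ± 0.07, the smallest fall of the family. Col6a4, a chain related to type VI collagen, read 6.32, 6.59 and 6.57 on day 0 and 5.84, 6.16 and 6.22 on day 1 (-0.42 ± 0.12, adjusted p = 0.0198 by limma). It was the least secure call, with an adjusted p of 0.0660 without day 0 replicate 2 and 0.0624 without day 0 replicate 3. Its other rows changed by -0.25 and -0.07, and the latter missed the threshold (adjusted p = 0.700 by limma over all rows).

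Many of these chains belong to tissues other than artery, and their rows were dim. Of the 25 genes, 17 had a mean log2 value under 8.5, a limit set after the values were seen. Their means ran from 5.69 to 8.04, and all 17 fell, by -1.37 to -0.37 with a median of -0.59. The next brighter row is that of Col8a1, with a mean of 8.77, so that none of the 17 rose follows from where the limit lies. Of the 4668 tested genes in that range of means 23.8% fell and 36.5% rose, with a median change of 0.06. Of the 25 genes 6 lay under the median gene mean of 6.79. Markers of the tissues that make such chains were dim as well. All 6 measured cartilage markers lay under the median gene mean, 3 fell and 1 rose, and the log2 of their summed level was 8.10 to 8.24 on day 0 and 8.0 to 8.05 on day 1. Matn3, a cartilage matrix protein, was at -0.86 ± 0.12, the aggrecan gene Acan at -0.26 ± 0.09, Matn1 at -0.31 ± 0.11 and Ucma at 0.37 ± 0.07. Matn1 missed the threshold in both rescalings of the arrays (adjusted p = 0.104 with quantile normalization and 0.0676 with median centring by limma). By limma 0 of 4 epithelial and mesothelial markers changed (0 at an unadjusted p under 0.05), with a summed level of 6.72 to 6.87 on day 0 and 6.62 to 6.75 on day 1. No detection call was used, and the probe sequences were not used here, so how far the row of a dim chain reads background or the transcripts of a brighter collagen was not tested.

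Chains that assemble together, or lie side by side in the genome, were compared through the difference between both log2 values on each array. Of 12 pairs listed 6 had both chains measured. An exact two-sided permutation test of 3 against 3 arrays cannot go below 0.10, and p-values were adjusted over the 6 pairs. Col5a1 minus Col5a2 read 0.25, 0.24 and 0.33 on day 0 and -1.03, -1.03 and -1.04 on day 1, a shift of -1.31 ± 0.03 (SE from the arrays' own spread, exact p = 0.10, adjusted 0.15). Col11a1 minus Col11a2 read 0.63, 0.70 and 0.76 on day 0 and -0.05, -0.12 and 0.11 on day 1, a shift of -0.71 ± 0.08 (exact p = 0.10, adjusted 0.15). In both pairs every day 1 difference lay below every day 0 difference, the a1 chain having the larger fall. Both type XI rows were dim, and how far they read background was not tested. For type I the shift was small and the replicates close. Col1a1 minus Col1a2 read 0.12, 0.11 and 0.12 on day 0 and 0.23, 0.22 and 0.24 on day 1 (0.11 ± 0.01, exact p = 0.10, adjusted 0.15). Col3a1 minus its genomic neighbour Col5a2 moved from 2.82, 2.81 and 2.82 to 2.56, 2.58 and 2.55 (-0.26 ± 0.01, exact p = 0.10, adjusted 0.15). The differences overlapped between days for Col4a3 minus Col4a4 (-0.10 ± 0.12, exact p = 0.50) and for Col9a1 minus Col9a2 (0.11 ± 0.13, exact p = 0.50). No pair could reach an adjusted p of 0.05 with 3 arrays per group, so the test separates none of the 6 from the others.

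**Figure D4:**
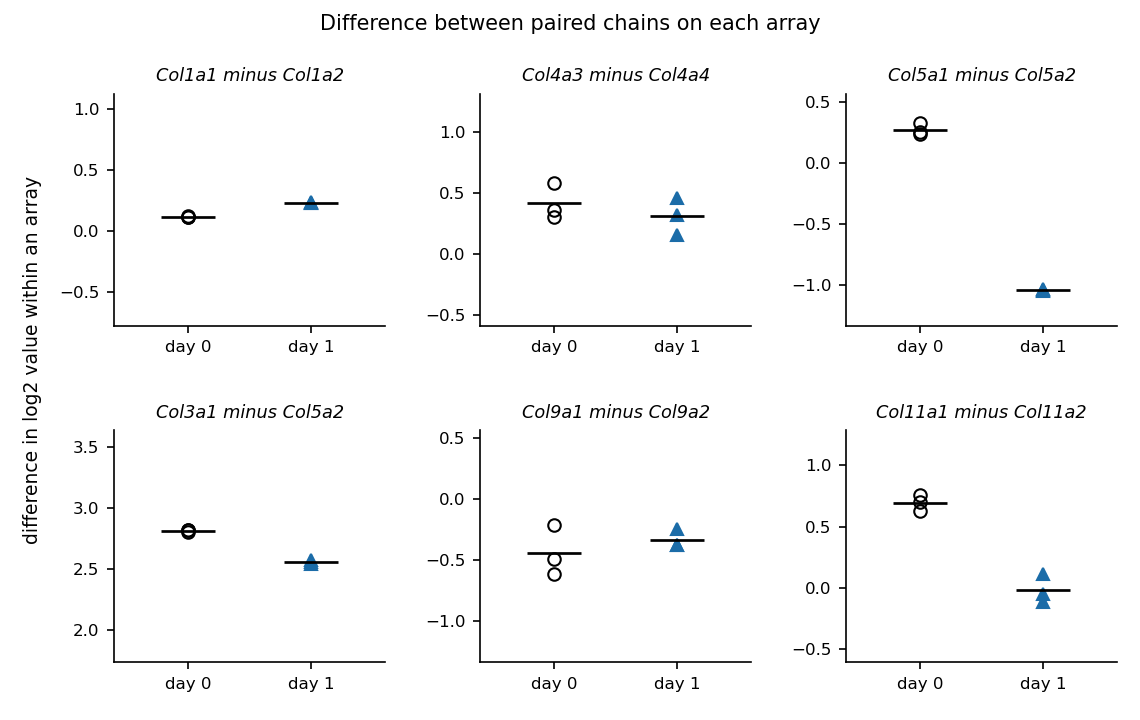
Difference between the log2 values of paired chains on each array, 3 day 0 pools of rings (circles) and 3 day 1 pools of ring cultures (triangles). Bars are group means, and every panel spans the same height. The groups stand far apart for Col5a1 minus Col5a2 and Col11a1 minus Col11a2, and overlap for Col4a3 minus Col4a4 and Col9a1 minus Col9a2.

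Genes that serve collagen were read from the same fit, and each list's shares stand against the 20.7% of all genes that fell and the 27.6% that rose. Of 22 folding and modifying enzymes 14 (63.6%) fell and 4 (18.2%) rose, with a median of -0.33. P3h2, a prolyl 3-hydroxylase, read 9.54, 9.57 and 9.47 on day 0 and 6.73, 6.86 and 6.71 on day 1 (-2.76 ± 0.07). Creb3l1, a transcription factor of the collagen secretory pathway, changed by -1.42 ± 0.10 and the isomerase gene Fkbp14 by -1.36 ± 0.09, while the prolyl 4-hydroxylase subunit gene P4ha3 rose by 0.69 ± 0.07. Among 11 genes that trim procollagen or cross-link the fibril 9 (81.8%) fell and 2 (18.2%) rose, with a median of -0.97. The cross-linking oxidase genes Loxl1 and Lox were at -1.32 ± 0.06 and -1.31 ± 0.07, the propeptidase gene Adamts2 at -1.27 ± 0.07, and Tll1, a tolloid-type propeptidase, at 1.05 ± 0.06.

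Fibril partners, which bind the fibril surface, fell in 11 of 17 cases (64.7%) and rose in 5 (29.4%), with a median of -0.23. With 1 array left out 9 to 10 fell and 4 to 5 rose. Under quantile normalization 12 fell and 3 rose, where 21.1% of all genes fell and 24.2% rose. Aspn was at -2.24 ± 0.08, Ogn at -1.94 ± 0.10 and Fmod at -1.30 ± 0.07, all small leucine-rich proteins, whereas the fibronectin gene Fn1 rose by 1.13 ± 0.06. Of 20 genes of collagen breakdown 9 (45%) rose and 6 (30%) fell, with a median of 0.13, where 27.6% of all genes rose and 20.7% fell. Leaving out 1 array gave 7 to 8 rises and 6 falls, and the median was 0.078 without day 0 replicate 3. The list counts 4 inhibitors of the proteases, of which Timp1 rose and Timp2, Timp3 and Timp4 fell. Without these 4, a split made after the values were seen, 8 of 16 rose and 3 fell, with a median of 0.21. The collagenase gene Mmp13 read 3.57, 4.07 and 3.85 on day 0 and 7.93, 8.17 and 8.46 on day 1 (4.36 ± 0.16). Mmp3 was at 2.89 ± 0.12, the inhibitor gene Timp1 at 2.40 ± 0.07 and the membrane protease gene Mmp16 at -1.41 ± 0.05. The day 0 means of Mmp13 (3.83), Mmp3 (4.53) and Tll1 (4.39) lay under 4.88, the 25th percentile of gene means. Whether these day 0 values stand above background was not tested, so their changes are differences between array values and not measured ratios of transcript.

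Collagen receptors rose in 6 of 11 cases (54.5%) and fell in 3 (27.3%), with a median of 0.20. The share that fell is near the 20.7% of all genes. With 1 array left out 5 to 6 rose and 3 fell. Itga11, an integrin chain for fibrillar collagen, read 9.31, 9.20 and 9.34 on day 0 and 6.33, 6.18 and 6.51 on day 1 (-2.94 ± 0.09). Itga2, whose integrin also binds collagen, moved the other way, from 6.88, 6.91 and 6.81 to 8.74, 8.82 and 8.74 (1.90 ± 0.06). The hyaluronan and collagen receptor gene Cd44 rose by 2.54 ± 0.06.

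**Figure D5:**
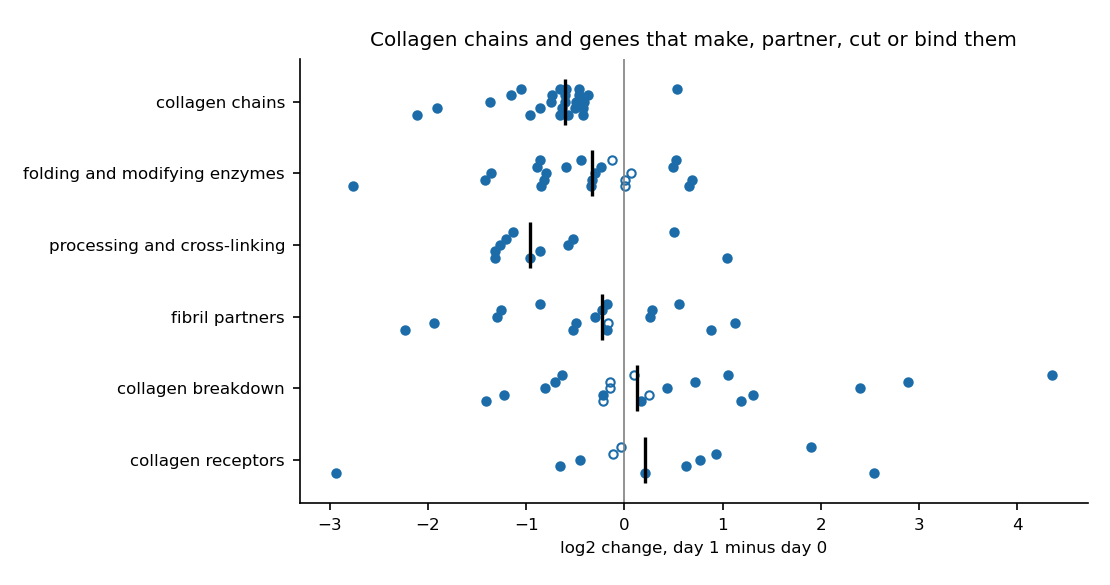
Log2 change of the 25 collagen genes and of the genes in 5 related lists, 1 point per gene, filled where the adjusted p was under 0.05 and open where not, with the list median as a bar. Collagen chains and the folding, processing and fibril partner lists lie mostly left of 0, and the breakdown and receptor lists spread to both sides.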

How the data were processed

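The authors deposited 1 table of expression values, 27342 rows by 6 arrays, read here as log2 intensity because values run from 1.32 to 14.16. Labelling was Affymetrix whole-transcript sense from 200 ng of total RNA, per the labels' protocols. Limma is the tool named in the submitters' processing notes. The genome build and the steps of background correction and normalization are not stated there or in the labels, and no further scaling was applied. Rows were named from the platform annotation, with symbols updated by gene ID against RefSeq (GRCr8), and 15097 rows with 1 symbol gave 14324 genes, each by its highest-mean row. Day 1 was compared with day 0 by limma 3.58.1 in R 4.3.3 (lmFit, eBayes, two-sided, Benjamini-Hochberg over 14324 genes, adjusted p under 0.05). Tables and figures used Python 3.11.15. On simulated data with 200 changed genes the fit recovered 89.6% of changes of 0.5 log2 units and 98.5% of changes of 1, with 7 of 199 calls false. The simulation used independent normal noise and 200 changed genes of 14324, where 20.7% fell and 27.6% rose in the data. Its rates therefore check the code and do not measure the errors of the real calls. The number of arrays limits the precision.

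The members and lists were chosen with earlier results of these data known. Per-array values are given for up to 4 risers and 4 fallers per class and for paired chains, plus a few others. Of each related list the 3 largest changes and the largest against the majority are named, and of cell marker lists those beside a result. Over all genes 27.6% rose and 20.7% fell. Of 6 endothelial markers 4 rose and 2 fell, and of 6 adipocyte markers 5 fell. Among 6 macrophage markers 2 rose and 2 fell, and among 5 skeletal muscle markers 1 rose and 2 fell. The log2 of the summed level was 9.44 to 9.67 on day 0 and 8.29 to 8.37 on day 1 for the adipocyte list. It was 11.27 to 11.33 and 8.30 to 8.45 for skeletal muscle, whose brightest row, Acta1, changed by -4.16 ± 0.10. Endothelial sums were 11.08 to 11.28 and 11.14 to 11.23, and macrophage sums 11.20 to 11.25 and 11.19 to 11.36. By limma 0 of 4 Schwann cell markers changed (0 at an unadjusted p under 0.05). The fibroblast list shares Dcn, Lum and Dpt with the fibril partners. Promoter windows are the 250 bases before the RefSeq start.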

Additional observations from a re-analysis of the deposited data

How the results depend on the processing

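Of 16 other fits 12 also gave 24 collagen genes lower and 1 higher, among them the fits with quantile normalization, median centring, the mean of a gene's rows, every row as a feature, array weights and a trended prior. No collagen gene changed direction in any. With members taken by updated symbols the same 25 genes were found. Against a 1.5-fold change (treat) 7 fell and 0 rose (3 fibrillar, 1 FACIT, 3 network with 0 network risers, 0 other) as this test asks for larger changes; over all genes 5.05% then fell. Leaving out genes under the median mean removed 6 collagen genes. Of those kept 18 fell and 1 rose, so every collagen gene kept was called, and the 1 kept of the other chains fell. Of all genes kept 25.7% then fell and 49% rose. Leaving out 1 array gave 23 to 24 falls and 1 rise, with medians of -0.63 to -0.58 for all, -0.62 to -0.54 for FACIT and -0.51 to -0.38 for other chains. Quantile normalization deepened the medians to -0.71 for all, -0.77 for fibrillar and -0.69 for FACIT, and the cause was not tested. Median centring moves the change of every gene alike, and took the median over all genes tested from -0.01 to 0.04. It made the collagen medians shallower, at -0.65 for fibrillar and -0.54 for FACIT.

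In the related lists, quantile normalization gave medians of -0.43 for folding enzymes, -1.11 for processing and -0.41 for fibril partners (3 rose). It gave 0.027 for breakdown and 0.048 for receptors, where 21.1% of all genes fell and 24.2% rose. Without the dimmest 25% the medians were 0.25 for breakdown and 0.63 for receptors, where 25.9% of all genes kept fell and 37.8% rose. Without genes under the median mean the receptor median was 0.70 and 1 processing gene rose. Of all genes then kept 25.7% fell and 49% rose. With treat, folding enzymes had 0 rises and 7 falls, processing 1 rise, and fibril partners 2 rises and 5 falls. Breakdown then had 2 falls and receptors 1 fall, where 5.05% of all genes fell and 5.77% rose. Without the protease inhibitors, an alternative added after seeing the data, breakdown had 3 falls.

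Same-numbered arrays of both days deviated from their group means with correlations of 0.01 to 0.04 across genes. Arrays with different numbers gave -0.05 to 0.04. Correlations this low cannot decide whether same-numbered pools shared animals or a preparation, so whether the numbers pair the samples is not known. With the replicate block 24 collagen genes fell and 1 rose, where 20.0% and 26.6% of all genes did, and no shift between paired chains changed sign. The arrays carry no read depth, and signal over background was not analysed here.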

Other observations

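Proteins outside the collagen family can also carry the glycine-repeat helix, among them C1q, adiponectin and its relatives. A list of 28 such genes was added after the collagen results had been seen, and 24 were measured. Of these 11 fell and 3 rose, with a median log2 change of -0.28, where 20.7% of all genes fell and 27.6% rose. Of the 5 measured C1qtnf genes, relatives of adiponectin, C1qtnf7 was at -1.78 ± 0.09, C1qtnf3 at -1.35 ± 0.14, C1qtnf6 at -1.15 ± 0.08 and C1qtnf1 at -0.91 ± 0.09 (SE, n = 3 per group), while C1qtnf5 rose by 0.21 ± 0.07 (adjusted p = 0.0482 by limma). The other two risers were Emilin1, also counted among the fibril partners, at 0.28 ± 0.06 and the scavenger receptor gene Colec12 at 0.28 ± 0.06. Cthrc1, a secreted protein of injured arteries with a short collagen repeat, was at -1.66 ± 0.06. The complement genes C1qa, C1qb and C1qc missed the threshold, at 0.16 ± 0.07, -0.06 ± 0.11 and 0.16 ± 0.08. The members named here were picked after their values were seen.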
